A study of Mus musculus with 19 samples.

Results

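Transcription factors that set the myeloid branches of blood cell development were described in bulk RNA-seq libraries from the dorsal root ganglia of mice, where the cell bodies of sensory neurons lie. The members were the 9 genes named Cebpa, Cebpb, Cebpd, Cebpe, Gfi1, Spi1, Irf8, Klf4 and Myb, found by gene name among the 36682 genes of the deposited counts and FPKM table (FPKM, fragments scaled to transcript length and to library size). Each had 1 row, and all 9 passed the filter on low counts that left 22778 genes for testing.

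The ganglia were those of lumbar levels L3 to L5 of male mice, taken on the side of the operated knee and pooled. All mice in all 4 groups, the controls included, were homozygous for MaFIA (macrophage Fas-induced apoptosis), a transgene driven by the Csf1r promoter whose product triggers death of the cells that carry it once the dimerizing drug AP20187 is given. AP20187 or vehicle was injected intraperitoneally each day over consecutive days. DMM stands for destabilization of the medial meniscus by surgery, a model of knee osteoarthritis, done 8 weeks before, and naive mice of matching age had no such surgery. There were 5 libraries of DMM mice given AP20187, 5 of DMM mice given vehicle, 4 of naive mice given AP20187 and 5 of naive mice given vehicle. The labels number the samples but do not say that each number is 1 animal, so the p-values measure the spread between these samples. The drug acts on every cell in the body with an active Csf1r promoter, not on the ganglion alone, and the promoter is also used by cells other than macrophages.

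Library totals ranged from 60984830 to 74691396 counts. Markers of sensory neurons, satellite glia and myelinating Schwann cells were all detected in every group, which matches the labelled tissue. Markers of blood cells were detected too. The summed level of 5 granulocyte precursor genes (Mpo, Elane, Prtn3, Ctsg and Ms4a3) was 1222 to 2625 CPM (counts scaled to library size) in DMM AP20187 against 30.3 to 404 CPM in DMM vehicle, and 319 to 1690.2 CPM in naive AP20187 against 45.6 to 115 CPM in naive vehicle. Over 8 markers of resident macrophages the sum was 204 to 870.5 CPM in DMM AP20187 and 149 to 526 CPM in DMM vehicle, and 373 to 655 CPM against 82.3 to 432 CPM in the naive groups, so it was not lower in the drug groups. The 8 neuron markers summed to 975 to 3927 CPM in DMM AP20187 against 2985 to 7607 CPM in DMM vehicle, and to 1256 to 5492 against 4993 to 8182 CPM in the naive groups. The DMM vehicle libraries fell into the sample numbers 32 to 34 and 63 to 64. Both 63 and 64 lay above 32, 33 and 34 for 6 of the 9 members (Cebpa, Cebpd, Cebpe, Gfi1, Spi1 and Myb), and library 64 was the highest of its group for all 9. What the number series stand for was not given in the sources used here, so the counts of members called against the DMM vehicle group are given with each series too.

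In the bone marrow, the proteins of these genes act in sequence and against each other. PU.1, the product of Spi1, and C/EBP alpha, the product of Cebpa, open the myeloid programme in progenitors that also express Myb. Gfi1 and Cebpe then drive the granulocyte branch, in which primary granule proteins are made before secondary granule proteins, while Irf8 and Klf4 drive the monocyte and dendritic branch. Cebpb is known for granulocyte production under stress, and Cebpd rises in acute inflammation. Gfi1 is a repressor, and the short DNA letters it binds contain AATC.

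Promoter sequences were available for 6 members, from RefSeq on the mouse build GRCm38.p6, as the 250 bases before the most upstream listed start. They were searched on both strands for TTNNGNAA (a form of the C/EBP site), GAGGAA (the PU.1 core) and AAATC (holding the GFI1 core). The 3 windows with any match are printed here, each 5′ to 3′ on the strand of its gene, because they belong to a gene that rose with AP20187 in both settings (Gfi1), one that rose in the DMM setting (Myb) and one that passed the test in no comparison (Irf8). Capitals mark the matched letters, and no match overlaps another.
Gfi1, chr5:107725806-107726055, minus strand: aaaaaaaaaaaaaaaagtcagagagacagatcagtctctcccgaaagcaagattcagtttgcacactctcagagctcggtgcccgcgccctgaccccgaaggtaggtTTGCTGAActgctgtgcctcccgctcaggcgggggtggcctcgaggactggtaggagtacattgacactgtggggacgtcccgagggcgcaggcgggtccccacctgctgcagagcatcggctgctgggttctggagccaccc
Myb, chr10:21160985-21161234, minus strand: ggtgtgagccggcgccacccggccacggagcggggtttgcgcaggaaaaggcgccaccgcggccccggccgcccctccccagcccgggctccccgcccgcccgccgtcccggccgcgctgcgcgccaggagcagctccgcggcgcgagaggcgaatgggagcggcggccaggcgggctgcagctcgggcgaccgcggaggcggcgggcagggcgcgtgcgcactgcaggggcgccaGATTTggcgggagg
Irf8, chr8:120736108-120736357, plus strand: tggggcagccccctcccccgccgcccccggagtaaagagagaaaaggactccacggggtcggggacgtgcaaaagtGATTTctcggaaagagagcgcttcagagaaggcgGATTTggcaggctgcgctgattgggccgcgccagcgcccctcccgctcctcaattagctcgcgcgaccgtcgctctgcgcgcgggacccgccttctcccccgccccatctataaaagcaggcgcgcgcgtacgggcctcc
The Gfi1 window held 1 C/EBP match, on the reverse strand, 143 bases before the start. The Myb window held 1 AAATC match on the reverse strand, 14 bases before the start, and the Irf8 window held 2, at 174 and 140 bases. The windows of Cebpa, Cebpb and Klf4 held none of the 3 motifs. Matches of this length are common: of 32536 promoter windows of the same length, 36.8% held TTNNGNAA, 23.4% held GAGGAA and 32.6% held AAATC.

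The first comparison asked how the members differed between drug and vehicle in the ganglia of DMM mice. Spi1, Gfi1, Cebpe and Myb rose, none fell, and Cebpa, Cebpb, Cebpd, Irf8 and Klf4 did not pass the test. That is 4 of 9 members called higher, in edgeR's quasi-likelihood test with Benjamini-Hochberg adjustment over all 22778 genes, at an adjusted p under 0.05. Of all genes tested, 23.8% were called in either direction, 11.3% higher and 12.4% lower. The median log2 fold change was 1.54 over the members and -0.10 over all genes tested. In 3 of the 4 (Cebpe, Gfi1 and Spi1) the lowest drug library lay above the highest vehicle library, as it did for 8.71% of all genes. In bulk RNA, a change in the number of cells of a type and a change in RNA per cell cannot be told apart. The markers of granulocyte precursors given above moved with these genes, as did 6 markers of mature neutrophils, which summed to 4406 to 7802 CPM in DMM AP20187 against 143 to 2818 CPM in DMM vehicle and to 1808 to 9258 against 282 to 682 CPM in the naive groups, without overlap. Their part in the result was not tested.

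In naive mice the drug comparison again gave 4 of 9 members called higher and 0 lower, namely Cebpb, Cebpe, Gfi1 and Spi1. Of all genes tested, 11.2% were called in either direction, 8.61% higher and 2.57% lower. The member median was 1.5 on the log2 scale against -0.07 over all genes. The groups did not overlap for 4 members (Cebpe, Gfi1, Spi1 and Cebpd), with the drug group higher, against 9.39% of all genes. The naive drug libraries also held more skeletal muscle RNA than naive vehicle. The 6 muscle genes summed to 1553 to 2351 CPM against 11.8 to 413 CPM, and their part in the result was not tested. In DMM vehicle the same genes summed to 14.9 to 1775 CPM, the highest being among libraries 32 to 34. Cebpe, Gfi1 and Spi1 were the 3 members called in both settings, which share no library. Myb was called in the DMM setting and not in the naive one, and Cebpb the reverse, and neither difference between the settings passed its own test, given further on.

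**Figure D1:**
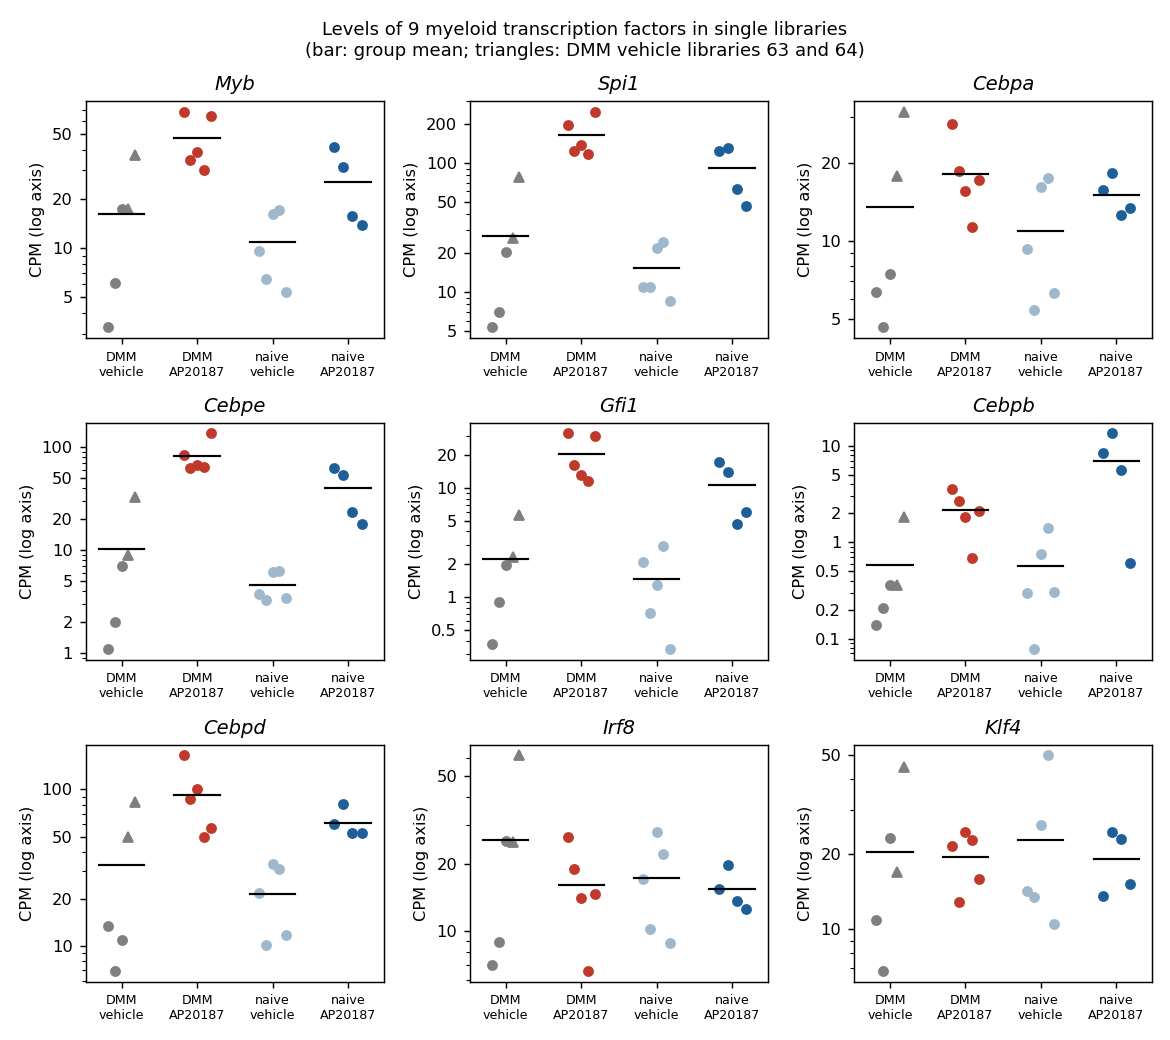
Level of each member in every library, in CPM on a log axis, by group, with a bar at the group mean and triangles for DMM vehicle libraries 63 and 64. For Spi1, Cebpe and Gfi1 every drug library lies above every vehicle library of the same setting, while the groups overlap for Irf8, Klf4 and Cebpa.

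Spi1, which encodes PU.1, a factor needed throughout the myeloid lineage, was read at 194, 124, 137, 116 and 248 CPM in the DMM AP20187 libraries and at 5.34, 7.04, 20.4, 25.9 and 76.8 CPM in the DMM vehicle libraries. The 5 drug libraries were all above the vehicle libraries, whose highest was library 64. The log2 fold change was 2.60 (SE 0.58, adjusted p = 0.00501), a fold of 6.04. In naive mice Spi1 stood at 123, 129, 62.9 and 45.8 CPM with the drug and at 11.0, 11.0, 21.7, 24.2 and 8.54 CPM with vehicle, again without overlap. The naive log2 fold change was 2.56 (SE 0.60, adjusted p = 0.0113).

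Cebpe encodes C/EBP epsilon, needed for the late steps of granulocyte maturation and for secondary granules. Its DMM AP20187 libraries gave 85.1, 63.1, 68.1, 64.0 and 137 CPM, and its DMM vehicle libraries 1.09, 1.98, 7.08, 9.04 and 32.7 CPM. Every drug library was higher than every vehicle library. The vehicle values spread widely, 29.9-fold from lowest to highest, against 2.17-fold in the drug group. The log2 fold change was 3.01 (SE 0.67, adjusted p = 0.00475). Naive libraries were at 63.7, 54.2, 23.6 and 18.1 CPM with AP20187 and at 3.76, 3.30, 6.20, 6.29 and 3.45 CPM with vehicle. The naive vehicle libraries were close together and all below the drug libraries, and the log2 fold change was 3.12 (SE 0.69, adjusted p = 0.0083).

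Gfi1, the repressor that favours granulocytes over monocytes, was at 31.7, 16.2, 13.2, 11.7 and 30 CPM in DMM AP20187 and at 0.370, 0.895, 1.97, 2.34 and 5.61 CPM in DMM vehicle. No vehicle library reached the drug libraries. The log2 fold change was 3.20 (SE 0.66, adjusted p = 0.00327), a fold of 9.18. In naive mice it was at 17.5, 14.1, 4.69 and 6.03 CPM with the drug and at 2.11, 0.715, 1.29, 2.94 and 0.334 CPM with vehicle, without overlap, and the log2 fold change was 2.84 (SE 0.67, adjusted p = 0.0123). Gfi1 shares 649 bases with A430072P03Rik on the opposite strand, a gene with at most 112 counts in any library, which differed by 3.63 (log2, SE 1.37, adjusted p = 0.0609) in DMM and 2.81 (SE 1.37, adjusted p = 0.184) in naive mice. The library kit keeps strand, but whether the counting used it was not given in the sources used here, so reads in such shared stretches are uncertain.

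Myb, which keeps progenitors immature and dividing, was at 68.4, 34.8, 38.7, 30.1 and 64.7 CPM in DMM AP20187 and at 3.28, 6.10, 17.3, 17.4 and 37.1 CPM in DMM vehicle. The groups overlapped, since vehicle library 64 exceeded the drug libraries 59 and 61. Myb passed narrowly: its log2 fold change was 1.54 (SE 0.52, adjusted p = 0.0391). The call was lost in 8 of 10 fits that left out 1 DMM library, with adjusted p-values up to 0.0949. In naive mice Myb was at 41.3, 31.2, 15.7 and 13.9 CPM with the drug and at 9.63, 6.48, 16.1, 17.0 and 5.36 CPM with vehicle, and the log2 fold change of 1.23 (SE 0.54, adjusted p = 0.142) did not pass. Myb shares 9281 bases with Gm26577 on the opposite strand, which had 52 to 190 counts against at least 213 for Myb. Gm26577 itself was at 1.09 (log2, SE 0.28, adjusted p = 0.0107) in DMM and 0.51 (SE 0.29, adjusted p = 0.257) in naive mice, so it too was called in the DMM setting alone.

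**Figure D2:**
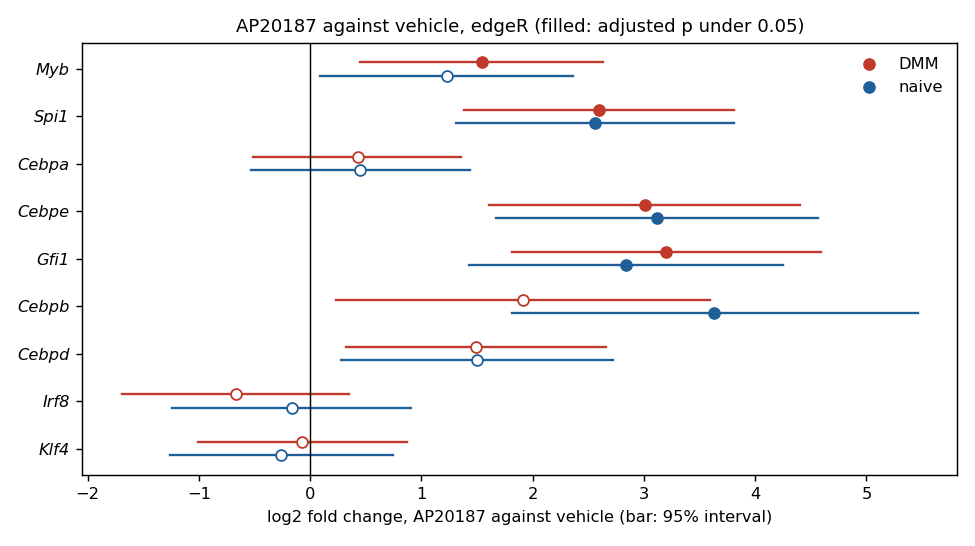
Log2 fold change of AP20187 against vehicle for each member in DMM and naive mice from edgeR, with 95% intervals, filled where the adjusted p was under 0.05. Intervals of Spi1, Cebpe and Gfi1 lie wholly above 0 in both settings, and those of Cebpa, Irf8 and Klf4 include 0 in both.

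The other C/EBP members were more variable. Cebpb had few counts, from 5 upward. It was at 3.59, 2.69, 1.82, 0.689 and 2.11 CPM in DMM AP20187 and at 0.139, 0.209, 0.363, 0.363 and 1.81 CPM in DMM vehicle, which overlapped through vehicle library 64 and drug library 61. The log2 fold change of 1.91 (SE 0.80, adjusted p = 0.0883) did not pass in DMM mice. In naive mice Cebpb was at 8.49, 13.5, 5.61 and 0.616 CPM with AP20187 and at 0.299, 0.0777, 0.747, 1.40 and 0.307 CPM with vehicle. Drug library 5 lay among the vehicle libraries and the other drug libraries far above them. The naive log2 fold change was 3.63 (SE 0.87, adjusted p = 0.0132), and without naive AP20187 library 3 it was 3.11 with an adjusted p of 0.0538 (0.000159 to 0.0538 over the alternatives). Cebpb is uncertain for another reason: 908 of its bases are shared with Peds1 on the opposite strand, which had 3568 to 10585 counts and differed by -0.67 (log2, SE 0.18, adjusted p = 0.0118) in DMM and -0.25 (SE 0.19, adjusted p = 0.38) in naive mice.

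Cebpd, an early responder in inflammation, was at 165, 86.8, 100, 49.7 and 56.6 CPM in DMM AP20187 and at 13.4, 6.92, 10.9, 49.4 and 82.6 CPM in DMM vehicle. Vehicle library 64 lay inside the drug range, and library 63 just under it. The log2 fold change of 1.49 (SE 0.56, adjusted p = 0.0597) did not pass. Naive libraries were at 59.7, 80.4, 52.3 and 52.3 CPM with the drug and at 21.9, 10.2, 33.4, 30.8 and 11.8 CPM with vehicle. These groups did not overlap, yet the log2 fold change of 1.5 (SE 0.58, adjusted p = 0.1) missed the threshold in the fit of all 4 groups. Cebpd shares 1808 bases with Spidr on the opposite strand, which had 394 to 1962 counts and itself rose, by 1.21 (SE 0.27, adjusted p = 0.00459) in DMM and 1.03 (SE 0.28, adjusted p = 0.0235) in naive mice on the log2 scale.

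Cebpa, which acts at the entry to the granulocyte and monocyte branches, ranged from 11.3 to 28.2 CPM in DMM AP20187, 4.66 to 31.4 in DMM vehicle, 12.6 to 18.2 in naive AP20187 and 5.41 to 17.5 in naive vehicle. The groups overlapped in both settings. Its log2 fold change was 0.43 (95% interval -0.51 to 1.36, adjusted p = 0.533) in DMM and 0.45 (-0.53 to 1.44, adjusted p = 0.534) in naive mice, so a level 2-fold higher with the drug lies inside both intervals.

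The members of the monocyte branch did not pass in either setting. Irf8, which favours monocytes and dendritic cells over granulocytes, was at 26.6, 19, 14.1, 6.59 and 14.6 CPM in DMM AP20187 and at 7.02, 8.95, 25.5, 25.2 and 62.0 CPM in DMM vehicle, and the groups overlapped. The log2 fold change was -0.67 (interval -1.69 to 0.35, adjusted p = 0.341). In naive mice Irf8 was at 15.5, 19.8, 13.7 and 12.6 CPM with the drug and at 17.1, 10.2, 28, 22.3 and 8.82 CPM with vehicle, and the log2 fold change was -0.16 (interval -1.24 to 0.91, adjusted p = 0.853). Klf4, a target of PU.1 in monocytes that is also expressed in endothelium and fibroblasts, ranged from 12.9 to 24.5 CPM in DMM AP20187, 6.80 to 44.6 in DMM vehicle, 13.6 to 24.6 in naive AP20187 and 10.5 to 49.8 in naive vehicle. The drug libraries lay inside the vehicle range in both settings, with log2 fold changes of -0.07 (-1.01 to 0.87) in DMM and -0.26 (-1.26 to 0.74) in naive mice. The monocyte markers, 6 genes, summed to 391 to 816 CPM in DMM AP20187 against 90.3 to 634 in DMM vehicle, and 281 to 678 against 90.6 to 282 CPM in the naive groups.

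Each series of DMM vehicle numbers gave a different count of calls. Against libraries 63 and 64 alone, 0 of 9 members were called in DMM mice, where 4.73% of all genes were, and against 32 to 34 alone 7 members and 36.3% of all genes were, so the share of all genes moved with the series too. Against 63 and 64 the log2 fold changes were 1.98 for Cebpe (adjusted p = 0.0597, range over the alternatives 1.38e-05 to 0.0597), 2.36 for Gfi1 (0.0911, range 2.85e-06 to 0.0911) and 1.66 for Spi1 (0.095, range 2.63e-05 to 0.095). Myb stood at 0.79 (adjusted p = 0.446, range 0.0047 to 0.446) and Cebpa at -0.42. Against 32 to 34, Cebpa at 1.56 (adjusted p = 0.00538, range 0.00538 to 0.808), Cebpb at 3.19 (0.0144, range 0.00909 to 0.665) and Cebpd at 3.14 (0.000297, range 0.000297 to 0.65) passed as well, while Irf8 stood at 0.23 and Klf4 at 0.52. Leaving out library 64 alone gave 6 calls, the 4 above with Cebpb at 3.01 and Cebpd at 2.19, against 34.0% of all genes. Libraries 63 and 64 also had more red cell RNA, with 6 erythroid genes summing to 7811 to 18102 CPM against 1084 to 4702 CPM in 32 to 34, and more granulocyte precursor RNA, at 151 to 404 against 30.3 to 106 CPM. They were also apart and higher for markers of other cells, with fibroblast markers at 4217 to 6653 against 1161 to 1992 CPM, satellite glia at 4365 to 4710.2 against 1981 to 2724 CPM, resident macrophages at 345 to 526 against 149 to 189 CPM and mature neutrophils at 896 to 2818 against 143 to 710.5 CPM. Further markers were apart and higher as well. Monocyte markers stood at 338 to 634 against 90.3 to 237 CPM, and B cell markers at 65.9 to 135 against 8.36 to 42.5 CPM. T and NK markers gave 11.5 to 20.6 against 3.92 to 7.14 CPM, and endothelial markers 115 to 146 against 67.1 to 113 CPM. Neuron markers overlapped with a lower range, at 2985 to 6294 against 6079 to 7607 CPM. Muscle markers overlapped, at 82.2 to 234 against 14.9 to 1775 CPM. The part of these differences in the result was not tested.

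Surgery without the drug was compared next, and no member passed between DMM vehicle and naive vehicle. None of the 22778 genes did in edgeR's quasi-likelihood test (0.0% called), where 377 genes and 0 members had an unadjusted p under 0.05, and DESeq2 called 1 gene. Member log2 fold changes ran from -0.16 for Klf4 to 1.17 for Cebpe (interval -0.15 to 2.50). This comparison shares the DMM vehicle libraries with the first one. The summed muscle genes were at 14.9 to 1775 CPM in DMM vehicle and 11.8 to 413 CPM in naive vehicle, and their part was not tested. With libraries 63 and 64 alone, where 2.21% of all genes were called, Cebpe was at 2.24 (adjusted p = 0.0485, range over the alternatives 0.0485 to 1.0), and with 32 to 34 alone at -0.44. With 32 to 34 alone all 9 members stood below 0, from -1.25 for Cebpb to -0.29 for Myb, with 0 called. Leaving out library 64 alone put Cebpa, Cebpb, Cebpd, Gfi1, Spi1 and Irf8 below 0, Cebpa at -0.27 and Spi1 at -0.06. The sign of Cebpb, at 0.03 with all libraries, turned without naive vehicle library 1, 2 or 5 as well.

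Between DMM and naive mice both given AP20187, 0 of 9 members were called, against 0.702% of all genes called by edgeR. An unadjusted p under 0.05 in that test was found for 0 members and for 3795 of the 22778 genes. The lowest value was that of Cebpb at -1.69 (SE 0.81, adjusted p = 0.303), and the highest that of Cebpe at 1.06 (SE 0.67, adjusted p = 0.43). The summed muscle genes were at 16.6 to 132 CPM in DMM AP20187, far under the naive drug libraries, and the part of that difference in these values was not tested.

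Whether the drug difference itself depended on surgery was tested as an interaction. It was called for 0 of 9 members and for 0.114% of all genes by edgeR. In that test no member and 1748 of the 22778 genes had an unadjusted p under 0.05. Cebpb had the largest member estimate, -1.72 (interval -4.10 to 0.66, adjusted p = 0.811), and Myb was at 0.32 (interval -1.24 to 1.88, adjusted p = 0.966). Spi1 was at 0.03 (interval -1.64 to 1.71), so a difference between settings of 2-fold in either direction is not outside what these libraries allow. Its sign turned in 10 of 29 alternatives. With vehicle libraries 63 and 64 alone the interaction was -2.70 for Cebpb, -0.48 for Myb and -0.95 for Spi1, and with 32 to 34 alone -0.44, 1.18 and 1.34, with 0 of 9 members called in either fit.

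Levels were compared between members per transcript length, as deposited FPKM. In DMM AP20187 the order of mean FPKM was Cebpe at 64.4 ± 19.3 (SD, n = 5), Spi1 at 58.5 ± 17.4, Cebpd at 24.3 ± 13.4, Cebpa at 6.75 ± 2.61, Klf4 at 6.26 ± 1.78, Gfi1 at 6.24 ± 2.87, Myb at 5.13 ± 1.93, Irf8 at 2.25 ± 1.12 and Cebpb at 1.42 ± 0.755. Only the step from Cebpd to Cebpa separated neighbours in that order without overlap of their libraries. In naive vehicle the order was Klf4 at 7.33 ± 5.25 (n = 5), Cebpd at 5.68 ± 2.86, Spi1 at 5.56 ± 2.66, Cebpa at 4.07 ± 2.12, Cebpe at 3.63 ± 1.25, Irf8 at 2.40 ± 1.17, Myb at 1.2 ± 0.606, Gfi1 at 0.452 ± 0.324 and Cebpb at 0.366 ± 0.344. All 8 pairs of neighbours overlapped there, and all 8 overlapped in DMM vehicle. Within DMM mice Cebpe was 1st of 9 with AP20187 and 3rd with vehicle, while Klf4 was 5th and 4th. Within naive mice Cebpe was 2nd with AP20187 and 5th with vehicle, while Klf4 was 4th and 1st.

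The FPKM ratio of Irf8, of the monocyte branch, to Cebpe, of the granulocyte branch, was taken in each library. It was 0.018 to 0.0549 in DMM AP20187 and 0.334 to 1.13 in DMM vehicle, and 0.0428 to 0.122 in naive AP20187 against 0.448 to 0.8 in naive vehicle. Drug and vehicle libraries did not overlap in either setting. In the vehicle series 32 to 34 the ratio was 1.13, 0.79 and 0.634, and in 63 and 64 it was 0.49 and 0.334, each above the DMM drug libraries. No separate test was made, because both genes enter the tests above, where Cebpe passed and Irf8 did not. Any gene that rose less than Cebpe has a lower ratio to it with the drug, so the gap is not particular to Irf8.

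Members were also set against the 5 primary granule genes named above, whose proteins fill the first granules of the promyelocyte. These genes all rose, with median log2 fold changes of 3.65 in DMM and 3.57 in naive mice. As a percent of their summed FPKM, Cebpe was 5.41 to 7.84% in DMM AP20187 against 5.33 to 12.3% in DMM vehicle, and 5.54 to 11.3% against 8.66 to 11.5% in naive mice, so the ranges overlapped. Gfi1 overlapped likewise, at 0.542 to 0.784% against 0.699 to 1.17% and at 0.591 to 0.871% against 0.428 to 1.96%. Myb did not overlap, at 0.494 to 0.617% against 1.93 to 3.64% in DMM and 0.498 to 1.04% against 2.47 to 3.9% in naive mice. Spi1 was at 5.69 to 7.24% against 11.1 to 14.3% in DMM, apart, and at 4.94 to 13.9% against 12.1 to 17.4% in naive mice, overlapping. Irf8 was at 0.137 to 0.358% against 4.09 to 6.8% in DMM and 0.237 to 1.15% against 5.14 to 8.59% in naive mice, without overlap. Cebpa, Cebpd and Klf4 were lower without overlap in both settings too, Cebpa at 0.442 to 0.933% against 5.31 to 14.7% in DMM and 0.643 to 2.83% against 8.64 to 13.2% in naive mice. Cebpb was apart and lower in DMM, at 0.0668 to 0.237% against 0.319 to 0.56%. In naive mice it overlapped, at 0.178 to 2.21% against 0.216 to 1.59%, with medians of 1.15% and 0.813%. Any gene that rose less than the primary granule genes has a lower share of them, so the shares of Myb are not particular to it.

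**Figure D3:**
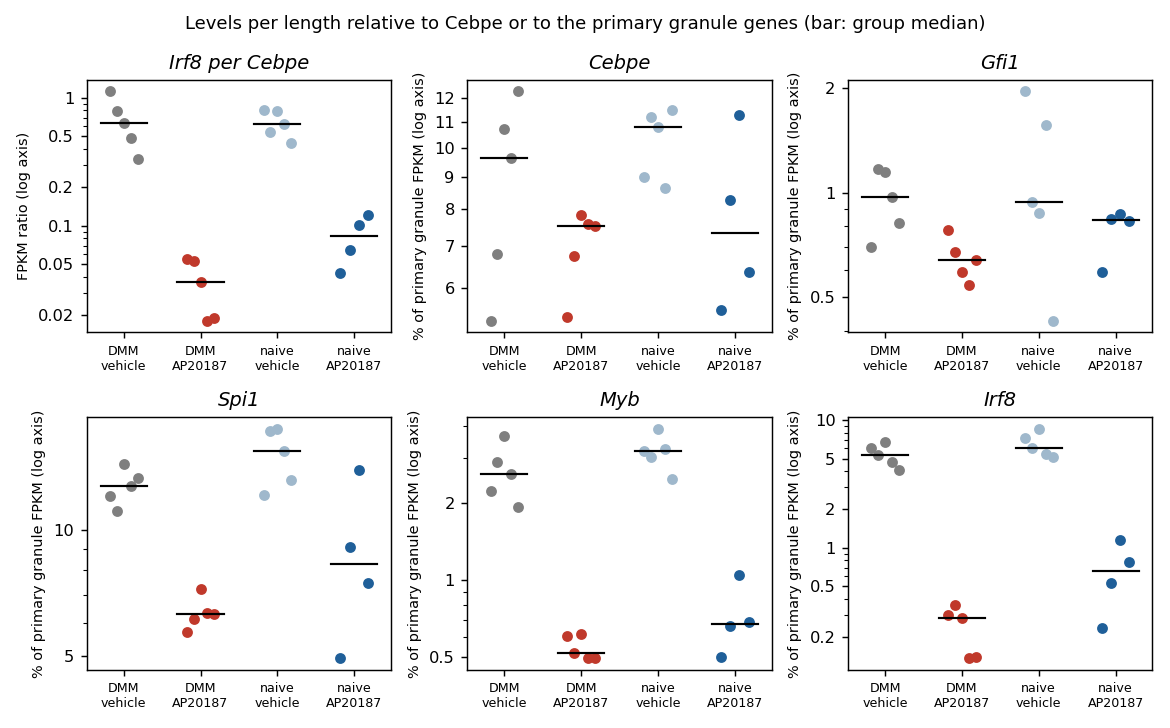
FPKM of Irf8 per FPKM of Cebpe, and FPKM of Cebpe, Gfi1, Spi1, Myb and Irf8 as a percent of the summed FPKM of 5 primary granule genes, in every library on log axes with a bar at the group median. Drug and vehicle libraries overlap for Cebpe and Gfi1 and are apart for Myb, Irf8 and the Irf8 to Cebpe ratio in both settings.

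Lists of neighbouring genes were read from the same fit by edgeR, in which 11.3% of all genes were called higher and 12.4% lower in DMM mice. In naive mice the shares were 8.61% and 2.57%. Of 7 secondary granule genes, which C/EBP epsilon is known to control, 5 rose in DMM and 6 in naive mice and none fell, with Ltf, lactoferrin, at 3.30 (SE 0.63, adjusted p = 0.00184) and 3.76 (SE 0.65, adjusted p = 0.002). Of 14 transcription factors of stem and progenitor cells, 4 rose in DMM and 5 in naive mice, none fell, and the list medians were 0.70 and 0.81. Ikzf1, the Ikaros factor of early blood cells, was at 2.53 (adjusted p = 0.00316) and 2.36 (adjusted p = 0.00924), and Erg, an ETS factor of stem cells and of endothelium, at 2.02 (adjusted p = 0.00254) and 1.73 (adjusted p = 0.0133). Summed endothelial markers were 158 to 294 CPM in DMM AP20187 against 67.1 to 146 CPM in DMM vehicle, and 210 to 477 against 63.9 to 306 CPM in the naive groups; their part in the Erg values was not tested.

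Of 6 B lineage factors, 3 fell in DMM mice (Pax5, Spib and Ebf1) and 2 in naive mice (Pax5 and Spib), and none rose. The others did not pass, Ikzf3 being at -0.13 (adjusted p = 0.882) and -0.29 (adjusted p = 0.742). Pax5, which fixes B cell identity, was at 0.015 to 0.965 CPM in DMM AP20187 and 2.53 to 17.7 CPM in DMM vehicle, and its log2 fold change was -4.33 (SE 0.77, adjusted p = 0.00115). Spib, the ETS relative of Spi1 used in B cells and plasmacytoid dendritic cells, was at -4.01 (SE 0.67, adjusted p = 0.000807) in DMM and -3.01 (SE 0.70, adjusted p = 0.0117) in naive mice, the reverse of Spi1 itself. The 6 B cell markers summed to 2.5 to 8.47 CPM in DMM AP20187 and 8.36 to 135 CPM in DMM vehicle, and to 2.6 to 5.27 against 21.2 to 51.2 CPM in naive mice, with Igll1 at 0 in every naive drug library.

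Of 10 further monocyte and dendritic cell factors, 3 rose and 2 fell in DMM mice, and 3 rose and 1 fell in naive mice. Tfec, a macrophage factor, rose by 2.97 (SE 0.54, adjusted p = 0.00144) and 3.03 (SE 0.56, adjusted p = 0.00296) on the log2 scale in DMM and naive mice, in that order. Irf4, a relative of Irf8 used in B cells and in a dendritic cell subset, was lower, at -1.74 (adjusted p = 0.038) and -2.69 (adjusted p = 0.016). The list therefore split, and its medians were 0.0 and 0.63. Of 5 erythroid and megakaryocyte factors only Nfe2 passed, at 1.66 (adjusted p = 0.0357) and 2.13 (adjusted p = 0.0242), and of 6 T lineage factors none passed in either setting. The 6 erythroid markers had lower ranges with the drug, with overlap. They summed to 902 to 3673 CPM in DMM AP20187 against 1084 to 18102 CPM in DMM vehicle. In the naive groups they summed to 1387 to 2746 against 2256 to 9256 CPM. The 6 markers of T and NK cells summed to 20.7 to 39.2 CPM in DMM AP20187 against 3.92 to 20.6 CPM in DMM vehicle, and to 9.13 to 31.3 against 2.91 to 12.5 CPM in the naive groups, and their part in these values was not tested. Among 15 relatives from the same protein families as the members, 3 rose and 4 fell in DMM mice, and 1 rose and 2 fell in naive mice. Over all genes 11.3% rose and 12.4% fell in DMM mice, and 8.61% rose and 2.57% fell in naive mice.

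**Figure D4:**
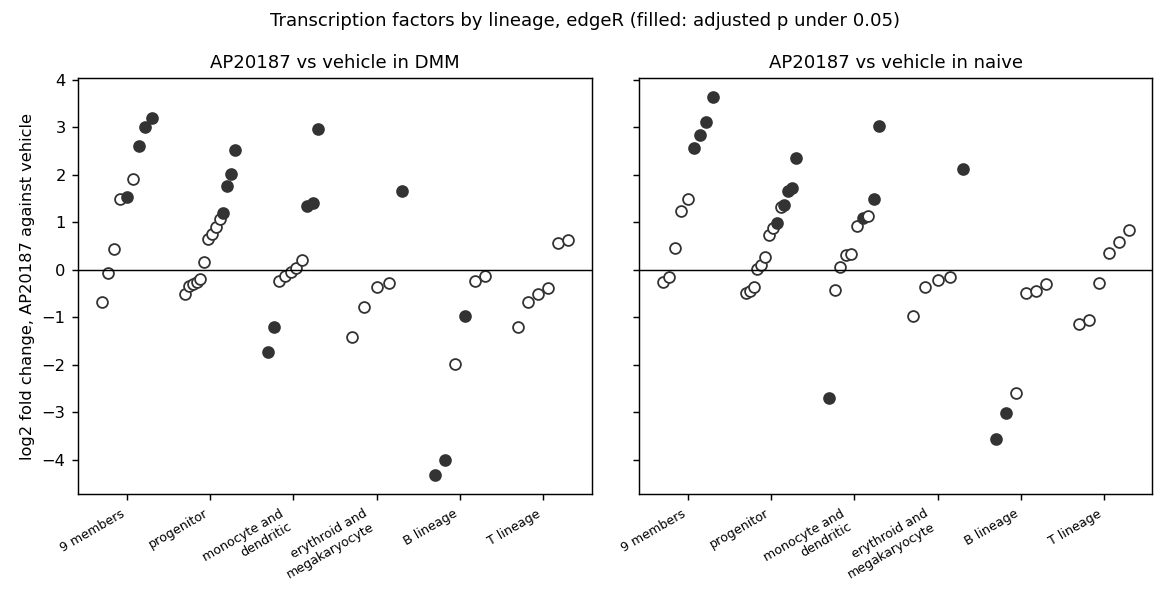
Log2 fold change of AP20187 against vehicle for the members and for transcription factors of other blood lineages in DMM (left) and naive (right) mice, 1 point a gene, filled where the adjusted p was under 0.05. Called progenitor factors lie above 0 and called B lineage factors below 0, and no T lineage factor was called.

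The DMM counts of these lists moved with the vehicle series too, as did those of all genes, of which 2.71% were called higher and 2.02% lower against 63 and 64, and 17.5% higher and 18.8% lower against 32 to 34. Against vehicle libraries 63 and 64 alone, all 5 primary granule genes and 4 of 7 secondary granule genes rose, 2 of 6 B lineage factors fell, and 1 of 14 progenitor factors rose, while no monocyte and dendritic factor rose, 2 of 10 fell, and Nfe2 did not pass. Against 32 to 34 alone, 7 of 7 secondary granule genes and 7 of 14 progenitor factors rose, 2 progenitor factors fell, 4 of 10 monocyte and dendritic factors rose and 0 fell, and 3 of 6 B lineage factors and 1 of 6 T lineage factors fell. Of 15 family relatives, 0 rose and 4 fell against 63 and 64, and 7 rose and 2 fell against 32 to 34. Pax5 and Spib were called lower against each series, Pax5 at -4.87 (adjusted p = 0.00646) and -3.76 (adjusted p = 0.00247), and Spib at -4.84 (adjusted p = 0.00121) and -2.99 (adjusted p = 0.0019). Ikzf1, Tfec and Erg were called against 32 to 34 and not against 63 and 64, where they stood at 1.77 (adjusted p = 0.0682), 2.20 (adjusted p = 0.0654) and 1.48 (adjusted p = 0.117). Irf4 was the reverse, at -2.43 (adjusted p = 0.0372) against 63 and 64 and -0.99 (adjusted p = 0.221) against 32 to 34.

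Genes whose pattern over the 19 libraries was closest to each member were found by the root mean square difference of log2 CPM after centring each gene on its mean. For Spi1 the closest were Fgr (0.13), a Src family kinase of myeloid cells, Padi4 (0.14), an enzyme of neutrophils, and Itgb2 (0.15), the beta 2 integrin chain, against a spread of Spi1 itself of 1.72. For Cebpe they were Hp (0.26), haptoglobin, Ncf4 (0.27), a subunit of the neutrophil oxidase, and Itgb2l (0.27), and for Gfi1 Slc28a2 (0.41), Tfec (0.43) and Slco4c1 (0.43). Myb was closest to Arhgap45 (0.19), Syk (0.20) and Csf3r (0.23), the receptor for G-CSF. Irf8 was closest to Mpeg1 (0.31), a macrophage gene, then Slc43a1 (0.32) and Pld4 (0.34). Klf4 was closest to Smad6, Calhm2 and Met (0.34 each), and Cebpa to Zfp36l2 (0.25), Gsn and Scarf2 (0.26 each). Cebpd was closest to Cbr2 (0.35), Pf4 and Gjb5 (0.39 each). The nearest genes of Cebpb (Rps12-ps24 at 0.79, Hmgn2-ps and Dnah2os at 0.82) differed by more in absolute terms, beside its own spread of 1.90, where the spreads of Irf8 and Klf4 were 0.77 and 0.68. All libraries enter this measure, so it reflects the group differences already described.

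On the build GRCm39 named in the submitters' processing notes, Spi1 (ENSMUSG00000002111) is listed at chr2:90912735-90944711, Cebpe (ENSMUSG00000052435) at chr14:54947817-54949631, Gfi1 (ENSMUSG00000029275) at chr5:107864523-107873671 and Myb (ENSMUSG00000019982) at chr10:21000834-21036883. Cebpa (ENSMUSG00000034957) is at chr7:34818718-34821353, Cebpb (ENSMUSG00000056501) at chr2:167530835-167532338 and Cebpd (ENSMUSG00000071637) at chr16:15705150-15708895. Irf8 (ENSMUSG00000041515) is at chr8:121463097-121483433 and Klf4 (ENSMUSG00000003032) at chr4:55530603-55532453. The promoter windows shown above are on the other build and cannot be compared with these coordinates.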

How the data were processed

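Poly(A) RNA libraries, made with a kit that keeps strand, were sequenced from 19 samples in 4 groups. The raw counts and FPKM per gene were computed by the authors and deposited in 1 table; cutadapt, HISAT2 and StringTie and the build GRCm39 are named in the submitters' processing notes, and versions and strand setting were not given in the sources used here. A counts-only table of 56691 entries, also deposited by the authors, held the same counts for the 9 members, and its entries with a blank name (6448, holding 0.414% to 1.72% of counts per library) were left out.

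Counts were tested with edgeR 4.0.16 (R 4.3.3): TMM normalization, filterByExpr with a minimum count of 10, 1 quasi-likelihood model of the 4 groups with 15 residual degrees of freedom, and Benjamini-Hochberg adjustment over all 22778 genes, called at an adjusted p under 0.05. CPM are counts scaled to the TMM library size. FPKM served to compare genes per length. Alternatives were RLE and no normalization, no filter, DESeq2 1.42.0, limma 3.58.1 (voom, and log2 FPKM with pseudocounts of 1 and 0.1), fits of only the groups compared, each library left out, each DMM vehicle number series, and a replicate block. Counts of the related lists against each number series were added after seeing the data. The code was tested on simulated counts.

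The members and lists were chosen with earlier results of these data known. Genes named beside the members are, from each list, up to 4 with the smallest adjusted p in a comparison, and the 3 genes nearest each member among those without a predicted-gene or clone name; genes overlapping a member were named after their counts were seen. Promoter sequences are from RefSeq.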

Additional observations from a re-analysis of the deposited data

Results flagged for a closer look

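In 36 sets of values (9 members in 4 groups), 3 had 1 library far from the rest by Dixon's criterion, and all 3 concern DMM vehicle library 64. Chance gives about 1 in 20 such sets where sets are independent and values normal. The 36 sets share their libraries, so the 3 are not separate events. Cebpb was at 1.81 CPM there, with a gap to the next library of 0.866 of the group's range. Cebpe was at 32.7 CPM, with a gap of 0.749 of the range, and Spi1 at 76.8 CPM, with a gap of 0.712. The same library had the highest value of its group for the other 6 members too. The highest summed erythroid marker level of any library, 18102 CPM, was that of DMM vehicle library 63 or 64.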

How the results depend on the processing

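With DMM vehicle samples 63 and 64 alone, 0 members were called for AP20187 in DMM mice (4.73% of all genes) and 1 for DMM against naive under vehicle (2.21%), and with 32 to 34 alone 7 (36.3%) and 0 (0.0%). Leaving out 1 library gave 3 to 6 calls in DMM mice (14.2 to 34.0% of all genes), 3 to 4 in naive mice (4.24 to 14.7%) and 0 in the other comparisons. Under the remaining alternatives the counts were 3 to 6 in DMM (11.3 to 31.4% of all genes) and 4 to 5 in naive mice (4.89 to 19.7%). The cause of these shifts was not tested. Cebpe, Gfi1 and Spi1 kept their calls in all 20 naive alternatives and, in DMM mice, in 20 of 21, the exception being samples 63 and 64. Cebpd passed in 8 of 21 DMM and 4 of 20 naive alternatives, DESeq2 among both (adjusted p = 0.0191 and 0.0469; ranges 0.000297 to 0.65 and 0.0161 to 0.243). Myb lost its call in 12 of 21 in DMM mice, and passed under DESeq2 and limma.

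A direction turned under at least 1 alternative for 3 of 9 members in the DMM drug comparison, 2 in the naive one, 9 for DMM against naive under vehicle, 2 under AP20187 and 8 for the interaction; none of these was called in the reported fit or where its direction turned. With samples 63 and 64 Cebpa in DMM was at -0.42, Klf4 under vehicle at 0.49 and the interactions of Gfi1, Myb and Spi1 at -0.52, -0.48 and -0.95. With 32 to 34 Irf8 was at 0.23 and Klf4 at 0.52 in DMM, and under vehicle Cebpa was at -0.83, Cebpb at -1.25, Cebpd at -1.06, Cebpe at -0.44, Gfi1 at -0.45, Spi1 at -0.48, Irf8 at -0.32 and Myb at -0.29. Cebpb under vehicle, 0.03 in the reported fit, was at -0.03 with voom and at -0.0, -0.05 and -0.0 on the FPKM scales. Klf4 in DMM was at 0.18 with voom and at 0.09, 0.14 and 0.09 on the FPKM scales. With 1 library left out, Klf4 ran from -0.29 to 0.43 in DMM, from -0.40 to 0.25 in naive mice and from -0.66 to 0.35 under vehicle, Irf8 in naive mice from -0.30 to 0.08, and the interactions of Gfi1 from -0.05 to 1.04 and Spi1 from -0.26 to 0.92. Under vehicle the ranges were -0.27 to 0.54 for Cebpa, -1.07 to 0.68 for Cebpb, -0.1 to 0.85 for Cebpd, -0.08 to 1.01 for Gfi1, -0.06 to 1.08 for Spi1 and -0.05 to 0.82 for Irf8, each lowest without library 64.

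The counts over all genes moved too. AP20187 in DMM mice gave 5410 calls, 1156 with samples 63 and 64, 8450 with 32 to 34, and 3212 to 7677 with 1 library left out. In naive mice 2548 genes were called, 4367 by DESeq2, 4149 and 4233 by limma on FPKM, 1388 with 8 libraries, and 994 to 3452 with 1 library left out. The naive split of 1962 higher and 586 lower became 1550 and 915 without normalization, 2765 and 1602 by DESeq2 and 1642 and 2507 on log2(FPKM + 1), and the median gene moved to -0.145 without normalization and -0.104 on that FPKM scale. DMM against naive under AP20187 went from 60 higher and 100 lower to 138 and 96 without normalization, 676 and 467 by DESeq2 and 1028 and 215 on log2(FPKM + 1), and to 43 to 269 genes in all with 1 library left out. The interaction count of 26 was 237 by DESeq2, 90 with samples 63 and 64, and 12 to 57 with 1 library left out. DMM against naive under vehicle went from 0 genes to 541 with samples 63 and 64.

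Naive samples share the numbers 1, 3, 4 and 5 across drug and vehicle. Correlations of deviations within a number were 0.0235, 0.301, -0.0822 and 0.183, and 1 of 4 samples correlated best with its own number. Values for 4 numbers cannot show whether samples with the same number share anything more. The replicate block gave 5 members and 2352 genes, and the same 8 libraries without the block 5 members and 1388 genes. At 60984830 counts or more per library, the lowest member counts were those of Cebpb (5) and Gfi1 (24), whose values in vehicle libraries are the least precise.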

Other observations

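Receptors and cytokines that steer the myeloid branches were read from the same fit. Over all genes 11.3% were called higher and 12.4% lower in DMM mice, and 8.61% higher and 2.57% lower in naive mice. Of 8 growth factor receptors, 3 rose and 2 fell in DMM mice and 1 rose in naive mice. Csf2rb, the shared beta chain for GM-CSF, IL-3 and IL-5, was at 215 to 459 CPM in DMM AP20187 and 7.0 to 49.7 CPM in DMM vehicle, without overlap, and its log2 fold change was 3.80 (SE 0.52, edgeR adjusted p = 0.000153) in DMM and 3.83 (SE 0.53, adjusted p = 0.000314) in naive mice. Csf3r, the G-CSF receptor, did not pass, at 1.31 (SE 0.55, adjusted p = 0.0872) and 1.45 (SE 0.57, adjusted p = 0.105). Kit, the stem cell factor receptor, which sensory neurons also express, was lower in DMM mice at -1.25 (SE 0.33, adjusted p = 0.013). Against vehicle libraries 63 and 64 alone Csf2rb still passed, at 3.10 (adjusted p = 0.0106), and Kit did not, at -0.50 (adjusted p = 0.5), while against 32 to 34 both passed, at 4.57 (adjusted p = 0.000101) and -1.59 (adjusted p = 0.00169). The summed neuron markers had a lower range there too, with overlap, and their part in that value was not tested.

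Of 6 tested cytokine genes among 7 listed, 3 rose in DMM and 2 in naive mice. Tnf was at 6.13 to 11.9 CPM in DMM AP20187 and 0.185 to 2.15 CPM in DMM vehicle (log2 fold change 3.29, SE 0.55, adjusted p = 0.000753), and at 3.67 (SE 0.57, adjusted p = 0.000906) in naive mice. Csf1, the ligand of the receptor whose promoter drives the transgene, was at 30.3 to 48.6 CPM in DMM AP20187 and 16.1 to 26.5 CPM in DMM vehicle. Its log2 fold change was 0.94 (SE 0.18, adjusted p = 0.00193) in DMM and 1.00 (SE 0.19, adjusted p = 0.00313) in naive mice. Against vehicle libraries 63 and 64 alone Tnf passed in DMM mice (2.62, adjusted p = 0.0256) and Csf1 did not (0.78, adjusted p = 0.0878), while both passed against 32 to 34 (3.98, adjusted p = 0.000338, and 1.06, adjusted p = 0.00146). Against 63 and 64, 1 cytokine gene rose and 1 fell, the latter Il1b at -2.57 (adjusted p = 0.0239), which stood at -1.58 (SE 0.66, adjusted p = 0.0889) against all DMM vehicle libraries and -0.05 (adjusted p = 0.958) against 32 to 34. Csf3, which encodes G-CSF, was listed at 0 in all vehicle libraries and reached 0.412 CPM in DMM AP20187.

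Among partners of the members, Hdac1, a deacetylase found in GFI1 complexes, rose by 1.03 (SE 0.27, adjusted p = 0.0119) and 0.96 (SE 0.28, adjusted p = 0.0342) on the log2 scale, where 2 of 5 cofactors rose in DMM and 1 in naive mice. Trib1, which promotes the breakdown of C/EBP alpha protein, rose by 0.91 (SE 0.21, adjusted p = 0.00584) and 0.84 (SE 0.22, adjusted p = 0.0212), while Trib2, with the same activity, was lower in DMM mice at -0.63 (SE 0.17, adjusted p = 0.0138). None of these 3 passed in DMM mice against libraries 63 and 64 alone, with Hdac1 at 0.50, Trib1 at 0.52 and Trib2 at -0.26, and all 3 passed against 32 to 34, at 1.55, 1.26 and -0.82.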
